A study of Mus musculus with 24 samples.

Results

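Hepcidin and 7 partner genes of iron handling were followed through mouse livers with NASH (nonalcoholic steatohepatitis), in which fat, inflammation and fibrosis build up together. The genes were taken by symbol from a table of 14293 genes and are Hamp (hepcidin), Bmp6, Tfr2, Trf (transferrin), Tfrc, Slc40a1 (ferroportin), Fth1 and Ftl1 (the ferritin chains). All 8 were found, each on 1 row, and all 8 reached 0.5 FPKM in at least 8 samples. FPKM scales the fragments of a gene by its transcript length and by the size of the library, so levels can be compared between genes per unit length. The 24 liver samples form 3 groups of 8, treated with vehicle, with vutiglabridin or with semaglutide, and the series' design text describes the tissue as NASH liver throughout, controls included. Vutiglabridin is a synthetic relative of glabridin, a licorice flavonoid, presented in the series title as an agonist of paraoxonase-2, and semaglutide is a peptide drug that acts as GLP-1 does at its receptor. Strain, sex, age, diet, dose and duration are absent from the labels, as is a healthy control, and nothing says that samples come from separate animals. The p-values therefore rest on sample-to-sample spread, part of which may be technical.

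Iron leaves cells only through ferroportin, and hepcidin, a peptide that hepatocytes secrete, binds ferroportin and has it degraded. Hepatocytes set the output of hepcidin by sensing iron: transferrin loaded with iron acts through TFR2 and HFE at the cell surface, and BMP6, released by the endothelial cells of the liver sinusoids, acts through BMP receptors, their cofactor hemojuvelin and SMAD proteins on the Hamp promoter, while interleukin-6 acts on the same promoter through STAT3. Inside cells, iron regulatory proteins bind a hairpin, the iron-responsive element, in the RNAs of ferritin, ferroportin and the transferrin receptor when iron is scarce. Binding ahead of the coding part holds back translation, and binding behind it protects the RNA from decay.

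The Hamp promoter is shown because the 2 inputs to hepcidin meet in it. The RefSeq sequence of the 250 bases ahead of the Hamp start site (GRCm38.p6, chr7:30944030-30944279, minus strand) was searched on both strands for GGCGCC, the core of the BMP-responsive element, for TTCNNNGAA, the pattern of STAT factors, and for CACGTG, an E-box. The capitals mark the matches, GGCGCC from base −109 and a STAT pattern from base −97, and no E-box was found.
Hamp: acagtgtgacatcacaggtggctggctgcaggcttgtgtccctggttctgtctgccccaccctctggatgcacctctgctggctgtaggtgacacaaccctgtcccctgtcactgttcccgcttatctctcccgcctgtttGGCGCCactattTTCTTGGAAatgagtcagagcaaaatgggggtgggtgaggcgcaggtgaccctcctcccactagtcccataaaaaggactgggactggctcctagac
The RefSeq windows run on a little past the start site, but only the 250 bases ahead of it were searched, here and below. Of 32851 mouse promoter windows of the same length, 9.59% held GGCGCC, 7.02% held TTCNNNGAA and 6.02% held CACGTG. The promoter of the neighbouring copy Hamp2 held the STAT pattern from base −94 and no GGCGCC. A match is a description of the letters and not a measured binding site.

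Iron-responsive elements are shown because they divide the 8 genes into 4 whose RNA carries the hairpin and 4 in which the search found none. GENCODE M21 protein-coding transcripts (GRCm38) were searched for the loop CAGTGN, with its last base not G, closed by an upper stem of 5 pairs, with an unpaired C before that stem and at least 3 of 5 pairs below. The capitals mark the 6-base loop. Fth1, Ftl1 and Slc40a1 each held 1 element, in the 5′ UTR.
Fth1, chr19:9982733-9982759, plus strand: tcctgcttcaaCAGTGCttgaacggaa
Ftl1, chr7:45459780-45459806, minus strand: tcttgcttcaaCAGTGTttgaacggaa
Slc40a1, chr1:45925466-45925492, minus strand: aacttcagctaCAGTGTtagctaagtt
Tfrc held 4 elements, all in the 3′ UTR on the plus strand, of which the first and the third are printed.
Tfrc, chr16:32631220-32631246: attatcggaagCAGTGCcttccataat
Tfrc, chr16:32631664-32631690: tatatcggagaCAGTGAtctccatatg
Among 14281 genes searched in their longest transcript, 8 (0.0560%) had such an element in the 5′ UTR and 17 (0.119%) in the 3′ UTR. Fth1 and Ftl1 have the same upper stem and the same 3′ arm, those of Slc40a1 and Tfrc have other letters, and the CAGTG of the loop is common to all. The data are RNA levels and do not measure translation or binding of these hairpins.

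The low FPKM values lie on steps of 1 fragment, which implied libraries of 11.98 to 19.82 M (mega) fragments in vehicle, of 5.98 to 15.24 M in vutiglabridin, where replicate 7 was the shallowest, and of 9.32 to 12.4 M in semaglutide. At these depths the 8 genes rest on very different numbers: an implied 23 to 122 fragments per library for Bmp6, 204 to 728 for Tfrc, 687 to 5639 for Hamp and 12207 to 34899 for Fth1. The 8 hepatocyte markers looked for (Alb, Apoa1, Apob, Ttr, Serpina1a, Fabp1, Hnf4a and Cps1) were all present, with summed levels of 34813 to 43803 FPKM in vehicle, 39202 to 53717 in vutiglabridin and 38906 to 52487 in semaglutide. The 4 Y-linked genes measured summed to 22.1 to 43.2 FPKM in each of the 24 libraries. All genes summed to 330352 ± 14299 FPKM in vehicle, 368614 ± 14580 in vutiglabridin and 343428 ± 14751 in semaglutide (SD, n = 8). Sums of marker levels, here and below, are not adjusted for these totals. All 114344 semaglutide cells of the table carry a trailing space that no other column has, so a separate processing of that group cannot be told apart from the drug.

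By level per length, Ftl1 was the most abundant of the 8 (1143 FPKM as the mean of the 3 group means), followed by Hamp (559.8), Fth1 (513), Trf (405), Tfr2 (95.8), Slc40a1 (14.8), Tfrc (5.80) and Bmp6 (1.44). Among neighbours in that order, Ftl1 and Hamp overlapped, and in semaglutide replicates 1 and 8 Hamp (1037 and 1106 FPKM) exceeded Ftl1 (830 and 739). Hamp and Fth1 overlapped widely between samples, as did Fth1 and Trf, and Slc40a1 and Tfrc overlapped at the edges of their ranges (8.74 against 10.97 FPKM). The ranges of Ftl1 and Fth1, of Trf and Tfr2, of Tfr2 and Slc40a1, and of Tfrc and Bmp6 were separate in all 24 samples. The plot of all values by group shows the spread around these levels.

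**Figure D1:**
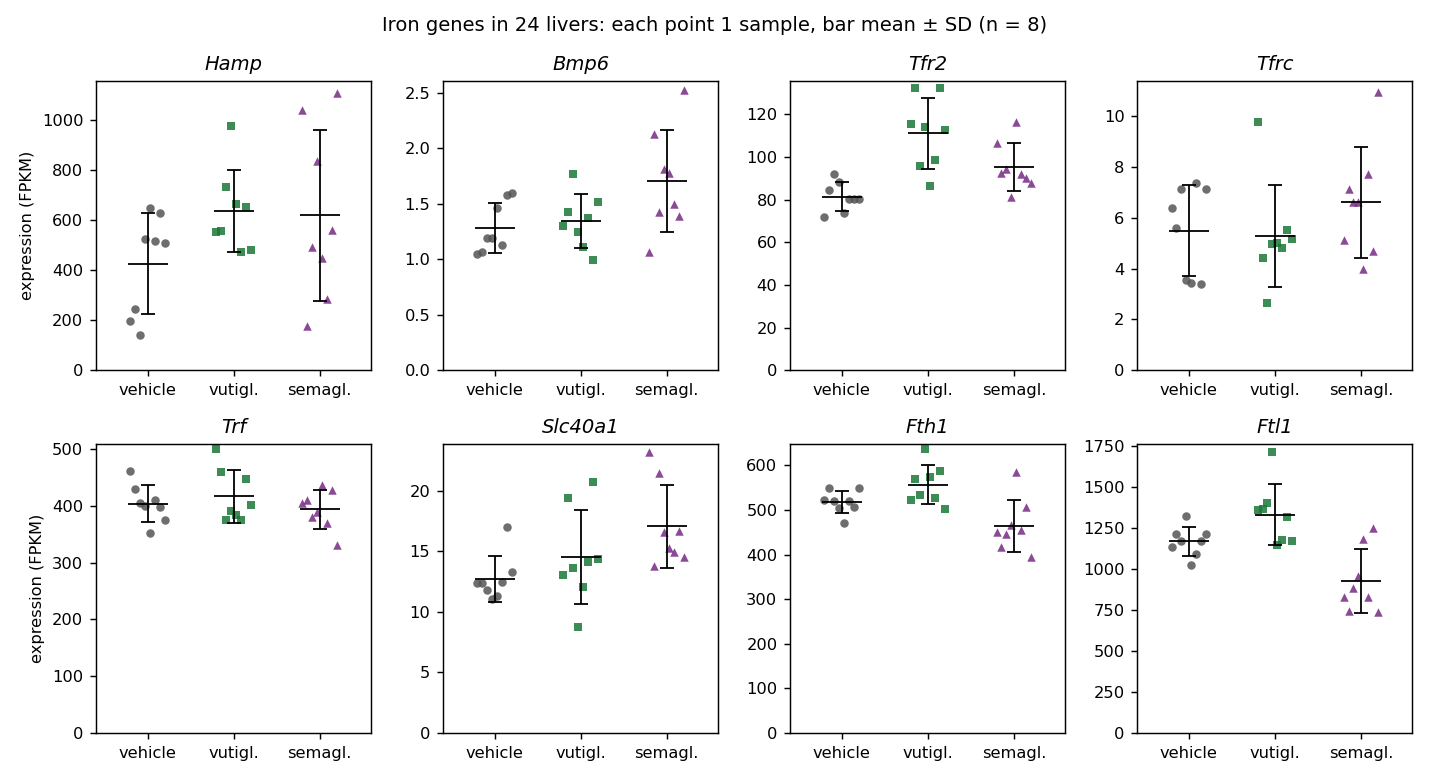
Expression in FPKM (y axis, from 0) of the 8 iron genes in vehicle, vutiglabridin (vutigl.) and semaglutide (semagl.) livers; each point is 1 sample and the bars give the mean ± SD of 8. Tfr2 is raised in vutiglabridin (111 against 81.3 FPKM in vehicle), Ftl1 is lowered in semaglutide (927 against 1169), and Hamp spreads from 141 to 1106 FPKM.

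Hamp, the hormone gene, varied more within groups than between them. Vehicle livers ran from 141 through a median of 512 to 649 FPKM, vutiglabridin livers from 474 through 605 to 974 and semaglutide livers from 178 through 527 to 1106. In vehicle, 3 samples lay between 141 and 243 FPKM and the other 5 between 509 and 649, with none in the gap, and semaglutide held both the highest value of the study and 2 of the low ones (178 and 285). No vutiglabridin sample lay under 474 FPKM. The coefficient of variation was 47.3% in vehicle, 25.8% in vutiglabridin and 55.2% in semaglutide; whether these differ was not tested.

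The mean of Hamp was 426 ± 201 FPKM in vehicle, 636 ± 164 in vutiglabridin and 618 ± 341 in semaglutide (SD, n = 8 each). Against vehicle, the log2 difference was 0.73 ± 0.34 (SE) for vutiglabridin (95% interval 0.03 to 1.43, unadjusted p = 0.0420, limma adjusted p = 0.155), with 8 of 8 samples above the vehicle mean and 4 of 8 above the highest vehicle sample. For semaglutide it was 0.50 (−0.20 to 1.20, limma adjusted p = 0.297), with 6 of 8 samples above the vehicle mean. Neither passed the threshold of 0.05 after adjustment over the 11562 genes tested, and these intervals still hold more than a doubling in level. The vehicle mean falls in the gap between the low and the high vehicle samples. Vutiglabridin replicates 6 and 8 (474 and 479 FPKM) lay above that mean but below the vehicle median of 512. Between the drugs Hamp differed by 0.23 (−0.47 to 0.93, limma adjusted p = 0.658). Hamp lies on chromosome 7 (GRCm38, 30942368 to 30944032, minus strand), close to Hamp2, with which its coding sequence is 92.5% identical, so the division of reads between them is uncertain. Summed over both copies, the level was 471 ± 208 FPKM in vehicle, 691 ± 166 in vutiglabridin and 688 ± 349 in semaglutide.

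Bmp6, the ligand, was the least abundant gene. It ran from 1.05 through 1.19 to 1.60 FPKM in vehicle, from 0.99 through 1.34 to 1.77 in vutiglabridin and from 1.07 through 1.64 to 2.53 in semaglutide. Vehicle and vutiglabridin samples covered almost the same span, while 4 of 8 semaglutide samples lay above all vehicle samples. The log2 difference was 0.04 (−0.15 to 0.22, limma adjusted p = 0.831) for vutiglabridin and 0.23 (0.05 to 0.42, limma adjusted p = 0.0540) for semaglutide, so neither passed. The semaglutide difference came under the threshold after quantile normalization (0.26, adjusted p = 0.0250) and once trends with GC content and exon length were removed from each library (0.31, adjusted p = 0.0150). In bulk liver, fewer cells of a type and less RNA per cell cannot be told apart. Markers of the sinusoidal endothelium, the known source of BMP6, were all present (10 of 10) and summed to 62.3 to 72.2 FPKM in vehicle, 64.0 to 80.3 in vutiglabridin and 59.5 to 84.1 in semaglutide. Over the 8 samples of a group, Bmp6 and the mean of these markers gave r = 0.38, −0.17 and −0.48 and rho = 0.43, −0.40 and −0.19 in vehicle, vutiglabridin and semaglutide (exact permutation tests, adjusted p for r = 0.710, 0.894 and 0.645). Without the 2 samples farthest from the marker median, r was 0.043, −0.085 and −0.064. Bmp6 lies on chromosome 13 (38345107 to 38500302, plus strand) and overlaps Txndc5 on the opposite strand; the library kit keeps strand, but whether the counting used it is not stated.

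Signalling from BMP6 to Hamp was followed through 17 listed genes besides Bmp6, of which 16 could be tested. Of these receptors, SMADs and cofactors, 7 rose, 2 fell and 7 did not pass in semaglutide against vehicle (median log2 change 0.21, against −0.01 over all genes tested). Over all genes 27.0% were called in that comparison, 14.3% higher and 12.7% lower. Bmpr1a, a type I BMP receptor, rose from 5.31 ± 0.601 to 8.17 ± 0.855 FPKM, or by 0.54 in log2 with an SE of 0.08 (limma adjusted p = 1.12e-05). Its ranges, 4.53 to 6.33 FPKM in vehicle and 6.34 to 9.25 in semaglutide, met almost edge to edge without overlap. Such separation occurred in 5.83% of all genes tested. Bmpr2, the type II receptor, rose by 0.50 (limma adjusted p = 3.15e-05), Smad5, which the receptors phosphorylate, by 0.44 (7.30e-05), and Smad4, its partner in the nucleus, by 0.30 (3.00e-04).

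The 2 genes of the list that fell in semaglutide were Hjv and Hfe. Hjv (hemojuvelin, a BMP coreceptor, listed as Hfe2) fell from 66.0 ± 4.43 to 54.7 ± 11.3 FPKM (log2 change −0.29, limma adjusted p = 0.0257), and Hfe, the partner of TFR2, changed by −0.16 (limma adjusted p = 0.0371). Removing the GC and length trends ended both of these calls, and then 9 of the 16 genes rose and 0 fell. In vutiglabridin livers 2 of the 16 rose, 0 fell and 14 did not pass (median 0.11, against 0.01 over all genes), where 15.3% of all genes were called, 6.53% higher and 8.78% lower. Furin, a protease that processes hepcidin precursor, rose by 0.21 (limma adjusted p = 0.0135) and Tmprss6, a protease that cuts hemojuvelin, by 0.19 (0.0160). Neither call held when the samples were scaled to equal totals (TPM) or quantile normalized, and the median turned to −0.04 under TPM.

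Transcripts that BMP signalling raises did not pass in either group. Of 7 tested targets (Id1, Id2, Id3, Smad6, Smad7, Atoh8 and Bambi), limma called 0 against vehicle for vutiglabridin (median 0.01, and −0.15 under TPM) and 0 for semaglutide (median 0.06), and 0 had an unadjusted p under the threshold in either comparison. Id1, the classical target, was at 8.71 ± 3.66 FPKM in vehicle, 10.7 ± 4.82 in vutiglabridin and 8.58 ± 1.63 in semaglutide (SD, n = 8). Smad7, a feedback inhibitor of the pathway, was at 3.30 ± 0.682, 2.88 ± 0.709 and 3.18 ± 0.659 FPKM in the same order. The values of Id1 spread from 3.61 to 17.2 FPKM, and the groups overlapped throughout.

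**Figure D2:**
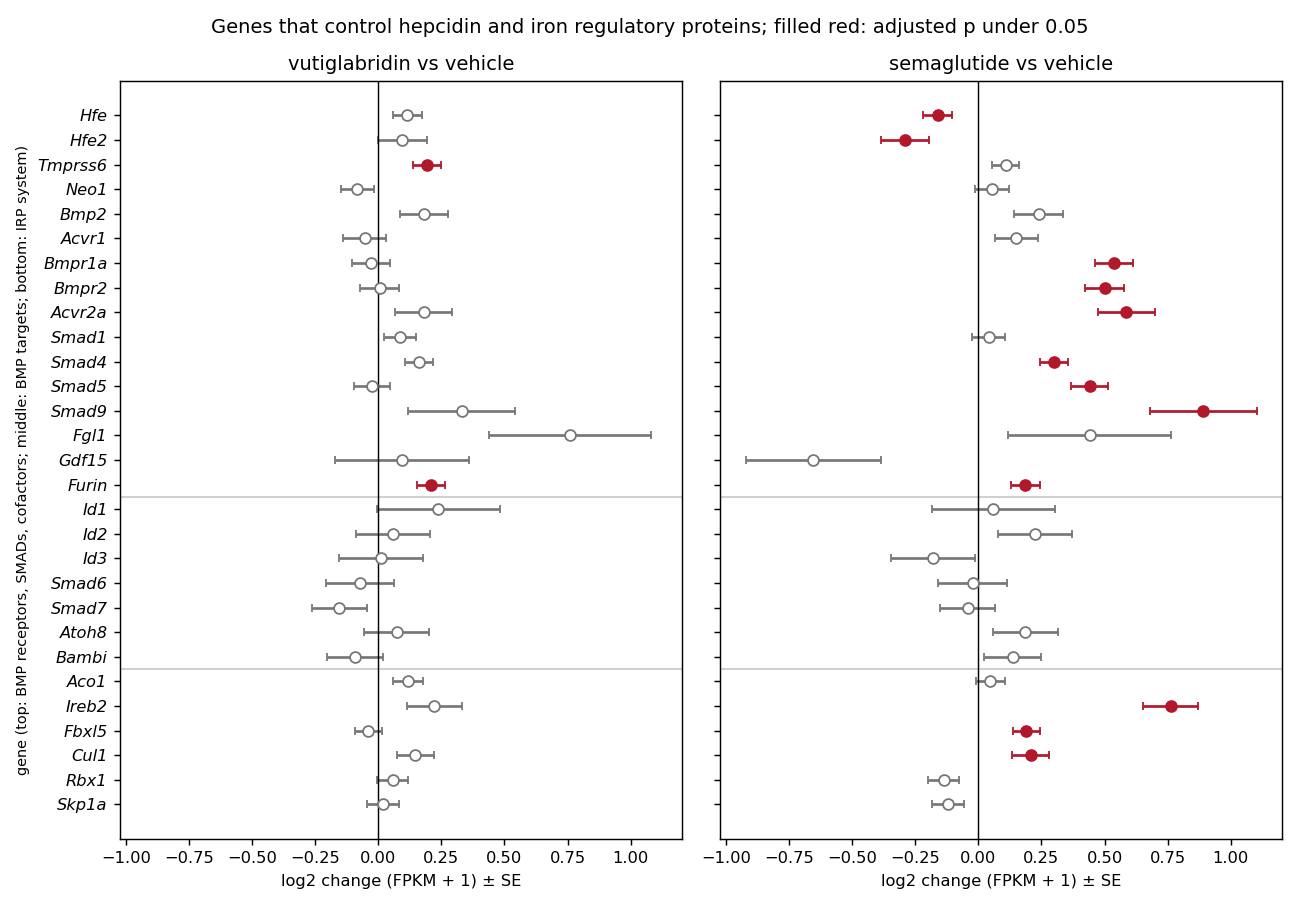
Log2 change on the FPKM + 1 scale (x axis, with SE) of genes that control hepcidin and of the iron regulatory system (y axis) in vutiglabridin and semaglutide livers against vehicle; filled red points have a limma adjusted p under 0.05. Semaglutide has 7 red points to the right and 2 to the left among the receptors, SMADs and cofactors, none of the 7 BMP targets is red, and Ireb2 stands at 0.76.

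The inflammatory input was measured through genes of inflammatory hepcidin control, among them the interleukin-6 receptor path. The acute phase genes, plasma proteins that hepatocytes make in inflammation, were measured beside them. Il6ra, the receptor chain for interleukin-6, rose from 7.17 ± 1.01 to 10.2 ± 2.43 FPKM in vutiglabridin (log2 change 0.43, limma adjusted p = 0.0159, a call that TPM scaling ended). It was the only 1 of 9 tested genes listed for inflammatory hepcidin control to pass there (under TPM 0 rose and 1 fell). In semaglutide 3 of 9 rose and 0 fell, namely Jak2, Jak1 and Il6st at 0.36, 0.31 and 0.28. Of 18 acute phase genes, 4 rose and 0 fell in vutiglabridin (Fgb, Fgg, Fga and Apcs, at 0.59, 0.63, 0.62 and 0.86), and 1 rose and 2 fell in semaglutide (Fgb at 0.41, Orm2 at −1.09 and Lcn2 at −1.06). The shares over all genes were 6.53% higher and 8.78% lower in vutiglabridin, and 14.3% higher and 12.7% lower in semaglutide. The semaglutide counts became 0 higher and 4 lower under TPM and 0 higher and 1 lower with the GC and length trends removed. Quantile normalization ended the calls of Fgb, Fgg and Fga. The spread was wide in vutiglabridin, where Apcs ran from 73.5 to 365 FPKM.

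Tfr2, the iron sensor of the hepatocyte surface, gave the only call among the 8 genes in vutiglabridin against vehicle. Its values ran from 71.7 through a median of 80.2 to 91.9 FPKM in vehicle, from 86.5 through 113 to 133 in vutiglabridin and from 81.3 through 92.3 to 117 in semaglutide. All but 1 vutiglabridin sample lay above the highest vehicle sample, and the exception, at 86.5 FPKM, lay above the vehicle mean. The mean rose from 81.3 ± 6.85 to 111 ± 16.6 FPKM (SD, n = 8), which is 36.6% higher. In log2 that is 0.43 with an SE of 0.08 and a 95% interval of 0.26 to 0.61 (limma adjusted p = 0.00105). It kept its call in every alternative tried, and the change was 0.28 both under TPM (adjusted p = 0.00666) and under quantile normalization (0.0159). The highest value, 132.57 FPKM, came from the shallowest library of the study, vutiglabridin replicate 7, and the change was 0.40 to 0.48 with any 1 sample left out. Tfr2 is made by hepatocytes. Of the 8 hepatocyte markers, 3 rose in vutiglabridin and 5 in semaglutide, with 0 lower, beside 6.53% and 14.3% of all genes higher. Under TPM 1 and 4 of them rose, and under quantile normalization 1 and 3. The part of these markers in the Tfr2 values was not tested.

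In semaglutide livers Tfr2 averaged 95.2 ± 11.2 FPKM, with 7 of 8 samples above the vehicle mean (log2 difference 0.22, 0.05 to 0.39, limma adjusted p = 0.0526). That value sits at the threshold: it passed after quantile normalization (adjusted p = 0.0286), median centring (0.0399), with only these 2 groups in the fit (0.0275) and after removal of the GC and length trends (0.00923). Vutiglabridin exceeded semaglutide by 0.21 (0.04 to 0.39, limma adjusted p = 0.0624), and 0.06 after quantile normalization (adjusted p = 0.621), so a difference between the drugs was not shown. Tfr2 lies on chromosome 5 (137569840 to 137587481, plus strand).

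Trf, the gene of the plasma iron carrier, showed no difference past the threshold. It ran from 352 through 403 to 461 FPKM in vehicle, from 376 through 396 to 501 in vutiglabridin and from 331 through 397 to 437 in semaglutide, 3 spans that overlap over most of their length. The log2 differences from vehicle were 0.04 (−0.10 to 0.19, limma adjusted p = 0.744) and −0.04 (−0.18 to 0.11, adjusted p = 0.747). Larger changes than 0.19 in either direction lie outside both intervals, a bound that holds for this scaling only. The sign is not fixed, since the first value is −0.12 under TPM and is also negative under quantile normalization. Trf lies on chromosome 9 (103204001 to 103230444, minus strand), within the bounds of a second annotated gene on the same strand, Gm20425.

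Tfrc, the receptor that takes up loaded transferrin, stood at 3.38 to 7.39 FPKM in vehicle (median 5.99), 2.65 to 9.79 in vutiglabridin (median 4.99) and 4.00 to 10.97 in semaglutide (median 6.63). In vutiglabridin 7 of 8 samples lay between 2.65 and 5.52 FPKM and 1 at 9.79. The log2 differences from vehicle were −0.05 (−0.44 to 0.34, limma adjusted p = 0.888) and 0.23 (−0.16 to 0.62, adjusted p = 0.397). Cells that divide need this receptor, and the 11 proliferation markers, summed, ran from 27.7 to 38.3 FPKM in vehicle, 20.0 to 26.9 in vutiglabridin and 21.8 to 29.4 in semaglutide; their part in the Tfrc values was not tested. Per length, Tfr2 was 8.00 to 36.2 times as abundant as Tfrc in single livers, and the coding sequences of the 2 receptors are 52.8% identical. Tfrc lies on chromosome 16 (32608920 to 32632794, plus strand).

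Slc40a1, the iron exporter, was higher in semaglutide livers. It ran from 11.06 through 12.4 to 17.04 FPKM in vehicle, from 8.74 through 13.9 to 20.8 in vutiglabridin and from 13.8 through 16.0 to 23.2 in semaglutide. Of the 8 vehicle samples 7 lay at or under 13.3 FPKM, and all 8 semaglutide samples lay above that value, while 1 vehicle sample, at 17.04, lay among them. The mean was 12.7 ± 1.89 FPKM in vehicle and 17.1 ± 3.43 in semaglutide (SD, n = 8), 34.1% higher. In log2 the change was 0.39 with an SE of 0.13 and a 95% interval of 0.12 to 0.65 (limma adjusted p = 0.0283).

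The Slc40a1 call depended on several settings. It was lost under TPM (0.35, adjusted p = 0.0577), after removal of the GC and length trends (0.21, adjusted p = 0.183) and without vehicle replicate 4 (0.36, 0.0516), semaglutide replicate 1 (0.32, 0.0670) or semaglutide replicate 3 (0.34, 0.0646). The longest Slc40a1 transcript has a GC content of 42.0%. The exons of all transcripts of the gene merge to 9000 bases, and 87.3% of the genes in the table are shorter. For vutiglabridin the log2 difference from vehicle was 0.15 (−0.12 to 0.41, limma adjusted p = 0.490). Kupffer cells, the resident macrophages that recycle iron from red cells, are rich in ferroportin. Their 8 markers summed to 87.1 to 325 FPKM in vehicle, 66.7 to 200 in vutiglabridin and 53.1 to 118 in semaglutide. None was at 0 throughout, and 2 of the 7 tested fell in semaglutide, Cd5l by 0.73 and Slc15a3 by 0.48, while 0 rose. Over all genes 12.7% were lower and 14.3% higher in that comparison. Slc40a1 and the mean of these markers gave r = 0.74 and rho = 0.64 over the 8 vehicle samples (exact permutation p = 0.0465 and 0.0962, adjusted p = 0.303 and 0.652), and r = 0.76 without the 2 samples farthest from the marker median. The values were r = −0.36 and rho = −0.31 in vutiglabridin and r = 0.45 and rho = 0.31 in semaglutide (exact permutation tests, adjusted p for r = 0.727 and 0.645). Slc40a1 lies on chromosome 1 (45908068 to 45926523, minus strand).

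The ferritin genes, which encode the iron store, differed between the drugs, with ranges that overlapped. Ftl1, the light chain, ran from 1024 through 1172 to 1324 FPKM in vehicle, from 1146 through 1341 to 1717 in vutiglabridin and from 739 through 857 to 1254 in semaglutide. In semaglutide 6 of 8 samples lay below every vehicle sample and the other 2, at 1183 and 1254 FPKM, above the vehicle mean. The mean fell from 1169 ± 89.7 FPKM in vehicle to 927 ± 194 in semaglutide (SD, n = 8), a change of −20.7%. In log2 that is −0.36 with an SE of 0.10 and a 95% interval of −0.57 to −0.14 (limma adjusted p = 0.0120). The call held in every alternative tried, with −0.45 under quantile normalization and −0.24 after removal of the GC and length trends (adjusted p = 0.0219). In vutiglabridin Ftl1 averaged 1333 ± 185 FPKM, with a log2 difference from vehicle of 0.18 (−0.03 to 0.39, limma adjusted p = 0.256) that turned to −0.14 under quantile normalization.

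Fth1, the heavy chain that oxidizes incoming iron, moved less. It ran from 470 through 520 to 550.3 FPKM in vehicle, from 501 through 552 to 637 in vutiglabridin and from 394 through 452 to 585 in semaglutide. As with Ftl1, 6 of 8 semaglutide samples lay below all vehicle samples, and 1 sample, replicate 5, lay above all of them. The log2 difference from vehicle was −0.16 (−0.30 to −0.02, limma adjusted p = 0.0770) for semaglutide, which passed under TPM (−0.22, 0.00716), under quantile normalization (−0.22, 0.0102) and without semaglutide replicate 5 (−0.21, 0.0104). For vutiglabridin it was 0.10 (−0.04 to 0.24, limma adjusted p = 0.352), and −0.06 under TPM.

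Set against each other, vutiglabridin livers exceeded semaglutide livers in both chains. Ftl1 was 43.8% higher, a log2 difference of 0.54 with an SE of 0.10 and an interval of 0.33 to 0.75 (limma adjusted p = 4.58e-04). In it 8 of 8 vutiglabridin samples lay above the semaglutide mean and 5 of 8 above every semaglutide sample; the difference was 0.31 after quantile normalization (adjusted p = 0.0230). Fth1 was 19.7% higher, a difference of 0.26 ± 0.07 (limma adjusted p = 0.00603), with 2 of 8 vutiglabridin samples above every semaglutide sample. The difference fell to 0.16 under TPM (adjusted p = 0.0437) and did not pass after quantile normalization (0.11, adjusted p = 0.193). The ratio of Ftl1 to Fth1 within a sample, which scaling of a library leaves as it is, was 2.26 ± 0.161 in vehicle, 2.39 ± 0.240 in vutiglabridin and 1.98 ± 0.223 in semaglutide (SD, n = 8). It ran from 1.78 to 2.48 in semaglutide and from 2.10 to 2.62 in vehicle, so the ranges overlapped. Macrophages also hold much ferritin RNA. Of the 8 tested markers of recruited macrophages, 8 fell in vutiglabridin and 5 in semaglutide, beside 8.78% and 12.7% of all genes lower. The 9 listed markers, all present, summed to 375 to 674 FPKM in vehicle, 172 to 386 in vutiglabridin and 248 to 480 in semaglutide. The most abundant of them also marks bile duct cells, so these sums are not specific to macrophages. The part of these markers in the ferritin values was not tested. Ftl1 has near-identical pseudogene copies; the copy listed in the table, Ftl1-ps1, stood at 0.26 to 1.22 FPKM, and reads of others may have been counted with the gene. Ftl1 lies on chromosome 7 (45457944 to 45459884, minus strand) and Fth1 on chromosome 19 (9980598 to 9985098, plus strand).

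**Figure D3:**
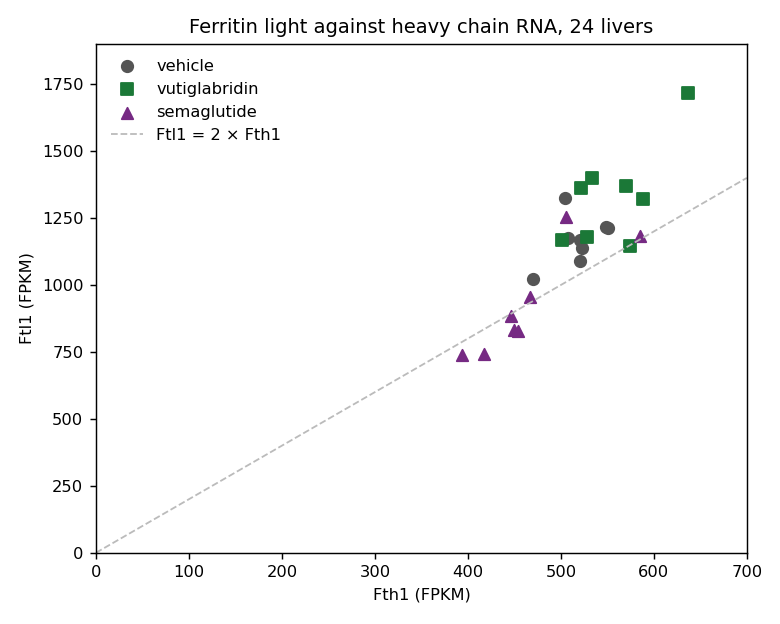
Ftl1 (y axis) against Fth1 (x axis), both in FPKM, with 1 point per liver and a dashed line where Ftl1 is 2 times Fth1. Vutiglabridin points reach farthest to the upper right (Ftl1 1146 to 1717), 6 of 8 semaglutide points lie at the lower left below all vehicle points, and the other 2 lie among the vehicle and vutiglabridin points.

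Other proteins of iron transport and storage showed no common direction. Of 23 tested genes, 2 rose, 3 fell and 18 did not pass in vutiglabridin (median log2 change −0.02), and 5 rose, 4 fell and 14 did not pass in semaglutide (median −0.04). Over all genes 15.3% and 27.0% were called in these comparisons. Steap3, a reductase that prepares iron for leaving the endosome, fell from 6.08 ± 0.404 to 4.67 ± 0.352 FPKM in vutiglabridin (log2 change −0.32, limma adjusted p = 2.54e-04) and to 5.13 ± 0.481 in semaglutide (−0.21, adjusted p = 0.00441). In vutiglabridin the highest sample of Steap3, at 5.40 FPKM, lay below the lowest of vehicle, at 5.71; such separation occurred in 1.74% of all genes tested. Slc39a14, the importer of iron that is not bound to transferrin, rose in vutiglabridin from 19.7 ± 3.06 to 29.7 ± 8.40 FPKM (0.54, limma adjusted p = 0.00387). Slc46a1, a carrier of folate and heme, changed by 0.26, a call that TPM scaling ended, and Slc22a17, a receptor for lipocalin-2, by −0.31, a call that quantile normalization ended.

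In semaglutide the 4 genes of this list with the lowest p all rose. Ncoa4, the receptor that delivers ferritin to autophagy, rose from 2.87 ± 0.250 to 4.23 ± 0.570 FPKM (log2 change 0.43, limma adjusted p = 2.22e-04), with ranges of 2.46 to 3.16 and 3.45 to 5.06 FPKM that did not overlap; 5.83% of all genes were separated in this way. Pcbp2, an iron chaperone that also binds RNA, rose by 0.38 (adjusted p = 5.57e-06), Lrp1, a receptor that clears heme bound to hemopexin, by 0.48 (2.19e-04) and Steap2, a metal reductase, by 0.44 (1.36e-04), a call that ended with the trends removed and a replicate block.

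The iron regulatory system included the gene with the largest semaglutide change among its 6 tested members, Ireb2. It encodes iron regulatory protein 2, which binds the hairpins printed above, and rose from 8.33 ± 1.30 to 14.9 ± 2.82 FPKM in semaglutide, by 0.76 in log2 with an SE of 0.11 (limma adjusted p = 1.42e-05), with 10.2 FPKM as the highest vehicle and 10.9 as the lowest semaglutide value. In vutiglabridin Ireb2 was at 9.90 ± 1.82 FPKM (0.22, adjusted p = 0.182), and it differed between the drugs by −0.54 (limma adjusted p = 7.66e-04). Aco1, iron regulatory protein 1, did not pass in either group (0.12 and 0.05). Fbxl5 and Cul1, parts of the ligase that removes iron regulatory protein 2 when iron is plentiful, changed by 0.19 and 0.21 in semaglutide, calls that ended under TPM and after removal of the GC and length trends. In all, 3 of 6 tested genes of this system rose and 0 fell in semaglutide, beside 14.3% higher and 12.7% lower over all genes, and 0 of 6 passed in vutiglabridin. Under TPM 1 rose and 2 fell in semaglutide and 1 fell in vutiglabridin, and with the GC and length trends removed 1 rose and 1 fell in semaglutide.

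Among 5 other tested genes whose RNA is known to carry an iron-responsive element, Epas1, the hypoxia factor HIF-2 alpha, rose in both drug groups, which share their controls, by 0.52 in vutiglabridin (limma adjusted p = 3.46e-04) and by 0.41 in semaglutide (0.00113). Alas2, the heme synthesis enzyme of red cell precursors, fell from 35.6 ± 3.99 to 25.5 ± 5.74 FPKM in semaglutide (−0.49, limma adjusted p = 0.00551). Summed, 7 erythroid markers ran from 109 to 442 FPKM in vehicle, 123 to 505 in vutiglabridin and 118 to 188 in semaglutide, and their part in the Alas2 values was not tested. Of 12 genes of heme synthesis and breakdown, 2 rose in vutiglabridin (Fech and Cpox, neither under TPM or quantile normalization) and 1 rose and 2 fell in semaglutide, with Uros, an enzyme of the porphyrin ring, at −0.37. Of 22 genes of iron-sulfur cluster assembly, 1 rose in vutiglabridin (Mms19), and 2 rose and 2 fell in semaglutide. For both lists the shares over all genes were 15.3% called in vutiglabridin and 27.0% in semaglutide, and under TPM 1 gene of each list fell and 0 rose in vutiglabridin. Iscu, the scaffold on which clusters form, fell in semaglutide from 26.3 ± 3.29 to 20.5 ± 2.58 FPKM (log2 change −0.34, limma adjusted p = 0.00667).

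Counted together, 1 of the 8 genes (12.5%) passed in vutiglabridin against vehicle, Tfr2, where 15.3% of all tested genes passed (6.53% higher, 8.78% lower). In semaglutide against vehicle 2 of 8 (25%) passed, Slc40a1 higher and Ftl1 lower, beside 27.0% of all genes. Between the drugs 2 of 8 passed, Ftl1 and Fth1, both higher in vutiglabridin, beside 24.4% of all genes (11.9% higher and 12.6% lower). These shares are near the background and are no result about the group of genes as such. The median log2 change of the 8 was 0.13, 0.23 and 0.15 in the 3 comparisons, against 0.01, −0.01 and 0.01 over all genes. The ranges separated entirely for 0 of the 8 genes in each comparison, against 1.74%, 5.83% and 3.40% of all genes.

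**Figure D4:**
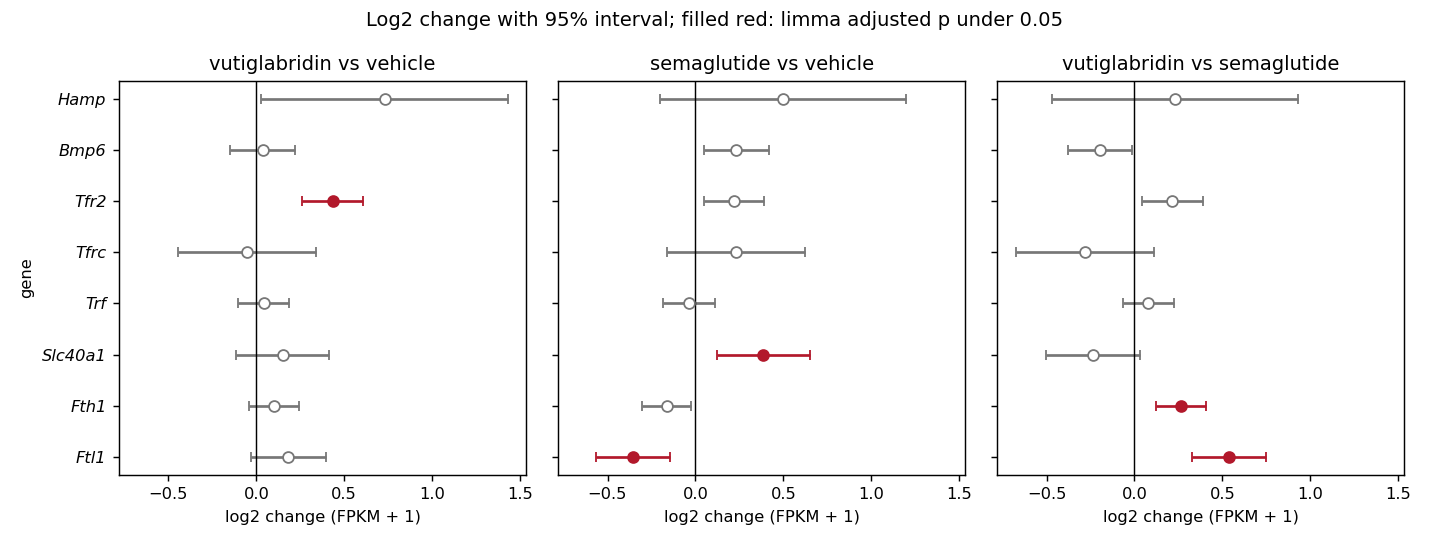
Log2 change on the FPKM + 1 scale (x axis) with its 95% interval for the 8 iron genes (y axis) in the 3 comparisons; filled red points have a limma adjusted p under 0.05. Tfr2 is red for vutiglabridin (0.43), Slc40a1 and Ftl1 for semaglutide (0.39 and −0.36), and Ftl1 and Fth1 between the drugs (0.54 and 0.26), while the interval of Hamp is the widest in each panel.

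Within groups, the ferritin chains varied together. After the group mean was subtracted, log2 values of Fth1 and Ftl1 correlated at r = 0.79 over the 24 samples, the highest of the 28 pairs among the 8 genes, and Trf and Tfr2 came next at 0.51. By the same measure the 3 genes nearest to Tfr2 were Vtn, Cpn2 and Serping1 (r = 0.92, 0.89 and 0.87), which encode plasma proteins. Nearest to Ftl1 were Cdc34, Atp6v0c and Cltb (0.91, 0.91 and 0.90), to Fth1 Gfer, Txn1 and Pdrg1 (0.85, 0.84 and 0.83), to Slc40a1 Zrsr1, Taok3 and Zfc3h1 (0.80, 0.77 and 0.76), and to Trf Slc41a2, Apcs and BC004004 (0.74, 0.73 and 0.70). Hamp had Stard5, Cox11 and Rrp1b as its nearest genes (0.79, 0.71 and 0.63), Tfrc had Lbr, Abce1 and Prelid3b (0.81, 0.76 and 0.76) and Bmp6 had Fut8 and Pik3ip1 among its nearest (0.74 and 0.72). These values describe the 24 libraries, which share depth and composition effects, and come without a test.

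No correlation of Hamp with its known inputs passed adjustment within groups at this sample size. In all 24 correlations computed (8 pairs in each of 3 groups of 8 samples), none passed after Benjamini-Hochberg adjustment, and the lowest adjusted p was 0.167 for Pearson and 0.523 for Spearman values (exact permutation tests, 2-sided). Hamp and Id1 in vehicle gave r = 0.82 and rho = 0.81 (exact permutation p = 0.0190 and 0.0218, adjusted p = 0.228 and 0.523), and r = 0.41 without the 2 samples farthest from the median of Id1. Hamp and Id1 gave r = 0.29 in vutiglabridin and 0.36 in semaglutide, and 0.59 and 0.94 without the 2 farthest samples. Hamp and Smad7 gave r = 0.55, 0.31 and −0.04 in vehicle, vutiglabridin and semaglutide, and 0.91, 0.13 and −0.08 without the 2 farthest. Hamp and the acute phase mean gave r = −0.54, 0.16 and −0.46 in the same order. Without the 2 farthest samples none of the 24 passed either (lowest adjusted p = 0.3, exact permutation test). Tfrc and Fth1 in semaglutide gave r = −0.87 and rho = −0.74 (exact permutation p = 0.00697 and 0.0458, adjusted p = 0.167 and 0.55), and r = −0.64 without the 2 farthest samples. Hamp and Bmp6 gave r = 0.65, −0.17 and −0.11 in vehicle, vutiglabridin and semaglutide, and Hamp and Tfr2 gave −0.28, −0.06 and −0.08 (exact permutation tests, no p below 0.0749 before adjustment).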

How the data were processed

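The deposited table gives expression as FPKM, which the authors computed; the submitters' processing notes list HISAT2, StringTie and DESeq2 without versions or roles, and the genome build, filters and strand setting of the counting are not stated there. All 14293 identifiers and symbols match GENCODE M21 (GRCm38), the source of coordinates. Because FPKM is relative to the library, abundant genes shift the rest. Values were analysed as log2(FPKM + 1), a scale that understates changes of low genes, in 11562 genes reaching 0.5 FPKM in 8 or more samples. One limma model (limma 3.58.1, R 4.3.3, mean trend, 2-sided) covered the 24 samples in 3 groups, with Benjamini-Hochberg adjustment over all tested genes of a comparison and a threshold of 0.05; the code was tested on simulated data. Depth was read from the steps of low values in genes of up to 1500 exonic bases; intervals cover the spread between samples. Alternatives were pseudocounts of 0.1 and 0.5, other filters, TPM, quantile and median scaling, removal of GC and length trends (splines, 5 degrees of freedom), a replicate block, the 2 compared groups alone, and each sample left out. Genes are named by rule: the 8, up to 4 called genes per list and drug with the lowest p, Id1, Smad7, Hfe, Hjv, Tmprss6, Aco1 and Ireb2, and the 3 genes most like each of the 8; Cd5l and Slc15a3 were named after their values were seen. The 8 genes and the lists were chosen with earlier results of these data known. Some genes that the rule names are not reported here. Pathway and marker lists count as description only.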

Additional observations from a re-analysis of the deposited data

Results flagged for a closer look

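In 3 of the 24 sets of 8 values (8 genes in 3 groups), 1 sample stood apart from its group by Dixon's test at the 95% level, a test that by chance marks a small share of such sets (about 1 in 20). Tfrc in vutiglabridin replicate 1 was at 9.79 FPKM, with a gap to the next sample of 0.598 of the group's range. Slc40a1 in vehicle replicate 7 was at 17.04 FPKM (0.622 of the range), and without that sample the semaglutide change of Slc40a1 was 0.44, the highest value over all samples left out in turn. Ftl1 in vutiglabridin replicate 4 was at 1717 FPKM (0.553 of the range).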

How the results depend on the processing

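Of 264 log2 changes of the 8 genes under alternatives that keep all samples, 238 kept their direction and side of the threshold, 4 lost a call, 12 gained one and 10 changed sign, none of those a called value. The causes were not tested. Against vehicle, vutiglabridin values that changed sign were Trf (−0.12), Bmp6 (−0.073) and Fth1 (−0.057) under TPM, and Ftl1 (−0.14), Trf (−0.18) and Fth1 (−0.10) under quantile normalization. Between the drugs the sign of Trf changed in the TPM fit (−0.023) and in the quantile fit (−0.056), and for semaglutide against vehicle Trf became 0.047 with the GC and length trends removed, with or without the replicate block. For semaglutide against vehicle, Slc40a1 lost its call under TPM (0.35) and with the trends removed (0.21, with or without the block). In the same comparison calls were gained by Tfr2 (0.22 under quantile normalization and with the 2 groups alone, 0.23 under median centring, 0.29 with the trends removed, with or without the block), by Bmp6 (0.26 under quantile normalization, 0.31 with the trends removed, with or without the block) and by Fth1 (−0.22 under TPM and under quantile normalization). Between the drugs Fth1 lost its call under quantile normalization (0.11) and Bmp6 gained one with trends removed and the block (−0.23). Under quantile normalization 5 of the 8 genes passed for semaglutide against vehicle and 1 between the drugs. TPM scaling took the median of all genes in vutiglabridin against vehicle from 0.01 to −0.13 and called 2964 genes there, 233 higher and 2731 lower, against 755 and 1015 before; it called 1202 and 2116 in semaglutide against vehicle (1650 and 1474 before) and 596 and 2264 between the drugs (1372 and 1454 before). The correlation of Hamp with Tfr2 in vutiglabridin turned from −0.06 to 0.25 without the 2 samples farthest from the median.

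With each sample left out in turn, 551 of 576 values kept direction and side. The ranges that crossed the threshold or 0 were −0.17 to 0.052 for Tfrc in vutiglabridin against vehicle (above 0 without vehicle replicates 3, 6 or 8 or vutiglabridin replicate 3). For semaglutide against vehicle they were 0.32 to 0.44 for Slc40a1, 0.18 to 0.25 for Tfr2, 0.17 to 0.28 for Bmp6 and −0.21 to −0.13 for Fth1. Between the drugs they were 0.18 to 0.26 for Tfr2 and −0.25 to −0.14 for Bmp6. The number of the 8 genes that passed ran from 1 (without semaglutide replicate 3) to 4 (without vutiglabridin replicate 7) in semaglutide against vehicle, and from 2 to 4 (without semaglutide replicate 1) between the drugs.

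The labels number the replicates alike in the 3 groups but do not say that a number marks a shared animal or day. Same-numbered samples correlated in their deviations at −0.12 to 0.28 between vehicle and vutiglabridin, −0.25 to 0.25 between vehicle and semaglutide and −0.20 to 0.29 between the drugs, with 3, 0 and 1 of 8 closest to their own number, so the numbers were not taken to pair the samples. With the replicate block Bmp6 passed in semaglutide against vehicle (0.23, limma adjusted p = 0.0460), and no other call of the 8 genes changed. Depth limits Bmp6 most, at 23 to 122 implied fragments a library.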

Other observations

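Hamp2, the second hepcidin gene of the mouse, stood at 45.2 ± 12.9 FPKM in vehicle, 55.5 ± 26.2 in vutiglabridin and 69.7 ± 27.5 in semaglutide (SD, n = 8), with log2 differences from vehicle of 0.23 (limma adjusted p = 0.557) and 0.58 (adjusted p = 0.0588). The ratio of Hamp to Hamp2 within a liver ran from 3.91 to 15.9 in vehicle, from 4.85 to 23.7 in vutiglabridin and from 4.03 to 16.7 in semaglutide, so the 2 copies did not keep a fixed proportion between livers of 1 group.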
